A study of Mus musculus with 133 samples.

Results

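Gene expression after partial hepatectomy (PH), the surgical removal of most of the liver, was compared with that after sham surgery at 52 h in hepatocytes of very old female mice (VOF). The comparison held 6 of the 133 libraries of the series, 3 after PH (VOF, PH) and 3 after sham (VOF, sham), and no library of either group carried the X mark that some replicates of the series have. The series followed liver regeneration in young, old and very old mice of both sexes by CEL-Seq2, which counts the 3' ends of transcripts with unique molecular identifiers (UMIs). All mice of both groups were wild type (WT) C57BL/6 females of 100 weeks, and hepatocytes were obtained by digesting the liver with collagenase in a two-step procedure. Sham surgery opened and closed the abdomen under inhaled anesthesia without removing liver. The labels number the libraries but do not say that each came from a separate mouse. The p-values therefore measure the spread between libraries, which may be technical in part. In the main model this spread was estimated over 15 VOF libraries, which also hold normal liver and both surgeries at 4 days.

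After PH the remaining hepatocytes, which are normally quiescent, re-enter the cell cycle, replicate their DNA and divide until the lost mass is restored, while they go on supplying plasma proteins and metabolic functions. Cyclins and their kinases drive the steps of this cycle, the minichromosome maintenance (MCM) helicase and the polymerases copy the DNA, and a later set of kinases, motor proteins and kinetochore proteins separates the chromosomes. Genes of this later set are switched on together through the proteins that bind the CCAAT box and the cell cycle genes homology region (CHR) of their promoters, and genes of DNA replication through E2F proteins.

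The libraries were of similar depth, with 1871392, 1320744 and 2511742 counts after PH and 2212358, 2265413 and 1893736 after sham. The 10 most abundant genes took 7.46 to 8.67% of the counts after PH and 5.68 to 7.13% after sham. In the VOF normal liver libraries, which share the estimate of the spread, they took 47.9 to 64.7%. PH replicates 1 and 2 and sham replicates 1 and 2 were prepared in 1 mix of the library protocol (mix 5), PH replicate 3 in mix 11 and sham replicate 3 in mix 13, so that for replicate 3 the mix and the surgery cannot be told apart. In 57.7% of 6768 genes PH replicate 3 lay between PH replicates 1 and 2, and in 50.1% sham replicate 3 lay between the other sham libraries, against 19.9 to 26.6% for replicates 1 and 2 of these groups. In a principal component analysis of all 15 VOF libraries the second component, with 12.73% of the variance, placed the PH libraries at 27 to 31 and the sham libraries at -4 to -1. The hepatocyte label was checked against its markers: Alb, the plasma protein albumin, stood at 4830 to 6120 CPM, that is counts relative to the library's TMM-scaled total, after PH and at 3150 to 4650 CPM after sham.

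PH raised 349 of the 11036 genes tested and lowered 270. These are 3.16% and 2.45% of the genes, called by the quasi-likelihood test of edgeR at an adjusted p of at most 0.1 and a minimum change of 2-fold, and together 5.61%. With an adjusted p under 0.05 and no minimum change 405 genes were higher (3.67%) and 320 lower (2.9%). The median log2 fold change of all genes was 0.008. The higher genes changed by a median of 3.85-fold and 169 of them by over 4-fold, whereas the lower genes changed by a median of 2.49-fold and 51 by over 4-fold. The higher genes were to a large part genes of cell division: 79 of the 100 tested genes in the mitosis or DNA replication list were among them. Within mix 5 alone, with 2 libraries against 2, edgeR called 147 genes higher (1.33%) and 133 lower (1.21%), and 138 and 109 of these were also called with all libraries.

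**Figure D1:**
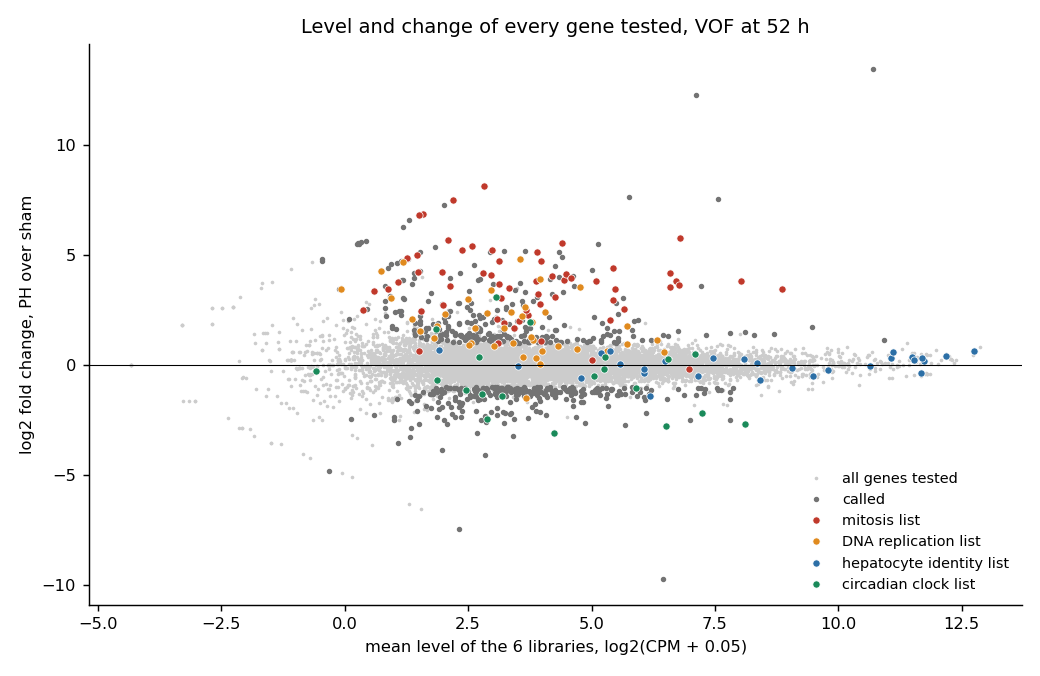
Log2 fold change of PH over sham (vertical axis) against the mean level over the 6 libraries (log2 of CPM + 0.05, horizontal axis) for every gene tested, with called genes in dark grey and members of 4 gene lists in color. Mitosis genes form the upper cloud, with 56 of 60 called higher, and the abundant hepatocyte identity genes at the right lie close to 0.

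Mitosis was the gene group that changed most broadly. Of 60 mitosis genes tested, 56 rose after PH (93.3%, against 3.16% of all genes tested) and none fell (against 2.45%). The list's median log2 fold change was 3.72. It was 3.55 with the 4 genes that had no count in any sham library set at their lower bound. In mix 5 alone 41 of the 60 genes were called higher, against 1.33% of all genes tested. Cdk1, the kinase that starts mitosis, stood at 241, 124 and 184 CPM after PH and at 5.56, 15.1 and 9.51 CPM after sham. Its log2 fold change was 4.16 ± 0.38 (SE, adjusted p = 7.89e-06), and every PH library lay far above every sham library. Mki67, a widely used marker of cycling cells, was at 107, 55.9 and 81.6 CPM after PH and at 4.82, 10.3 and 7.35 CPM after sham (log2 fold change 3.43 ± 0.28, adjusted p = 1.89e-06). The cyclins of this stage moved with them. Ccnb1 (cyclin B1) was at 21.5, 38.3 and 30.9 CPM against 1.48, 0.966 and 0.864 CPM in sham (log2 fold change 4.69 ± 0.53, adjusted p = 6.1e-05). Ccna2 (cyclin A2) was at 22.4, 8.8 and 17 CPM against 1.48, 2.9 and 1.3 CPM (log2 fold change 3.03 ± 0.46, adjusted p = 0.000798). Neither cyclin overlapped between the groups, although PH replicate 2 held the lowest Ccna2 level and the highest Ccnb1 level of the 3 PH libraries.

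Among the genes that build and divide the spindle, Plk1, a mitotic kinase, was at 923, 774 and 847 CPM after PH and at 43.7, 114 and 78.6 CPM after sham (log2 fold change 3.42 ± 0.31, adjusted p = 7.64e-06). Prc1, which bundles the microtubules of the central spindle, was at 582, 407 and 463 CPM against 21.1, 45.4 and 36.7 CPM (log2 fold change 3.81 ± 0.27, adjusted p = 6.51e-07). Spc25, a subunit of the kinetochore complex that holds microtubules, was at 243, 163 and 204 CPM against 15.6, 17.4 and 16.4 CPM (log2 fold change 3.62 ± 0.22, adjusted p = 1.45e-07). In all of these the PH library with the fewest total counts, replicate 2, was the lowest of the PH group and still above the highest sham library. Top2a, which untangles DNA before the chromosomes separate, was at 242, 123 and 224 CPM against 8.89, 21.6 and 10.8 CPM (log2 fold change 3.81 ± 0.34, adjusted p = 6.85e-06). The kinesin Cenpe rose as well, from 0, 1.61 and 0.864 CPM in sham to 51.7, 28.3 and 43.8 CPM (log2 fold change 5.51 ± 0.54, adjusted p = 1.28e-05). The 4 mitosis genes that were not called were Cdc25b, Pttg1, Cks2 and Lmnb1, and of these Pttg1, which restrains chromosome separation, alone had a log2 fold change below 0 (-0.2, adjusted p = 0.45).

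Some mitosis genes had no count at all after sham, and their fold is then a lower bound against 3 counts per library. Foxm1, the transcription factor that drives many mitotic genes, was at 2.29, 1.89 and 12.6 CPM after PH, at least 4.97-fold higher than in sham (adjusted p = 0.00611). Cdc20, which activates the complex that ends mitosis, was at 2.75, 2.51 and 36.9 CPM, at least 12.5-fold higher (adjusted p = 0.0169), and Kif2c, a microtubule depolymerase, was at 3.2, 1.26 and 22.7 CPM, at least 8.05-fold higher (adjusted p = 0.025). In each, PH replicate 3 stood well above the other PH libraries. These genes are among 394 genes of the table whose deposited values all follow the UMI correction formula. Their values are not rounded as the other genes' values are, so that the batch adjustment of the deposited counts appears to have left them unchanged. The list holds 19 such genes, all called higher, and in them PH replicate 3 stood at a median of 3.58 times the mean of PH replicates 1 and 2 (range 0.679 to 14 times). In the other 37 called mitosis genes this ratio had a median of 1.06 (range 0.82 to 1.51). The part that the mix of replicate 3 plays in the size of these changes was not tested; within mix 5 Foxm1 and Cdc20 were still called higher and Kif2c was not.

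Genes of DNA replication rose by smaller steps, at a median log2 fold change of 1.67. Of 40 tested 23 were called higher (57.5%) and 1 lower (2.5%), against 3.16% and 2.45% of all genes tested. In mix 5 alone 14 were called higher, against 1.33% of all genes tested. Mcm5, a subunit of the MCM helicase, was at 39.8, 15.1 and 32.2 CPM after PH and at 1.48, 2.9 and 1.3 CPM after sham (log2 fold change 3.88 ± 0.47, adjusted p = 0.000108). Mcm3, another subunit, was at 21, 17 and 20.8 CPM against 4.08, 4.83 and 3.89 CPM (log2 fold change 2.19 ± 0.26, adjusted p = 9.29e-05). Rrm2, the regulated subunit of the enzyme that makes deoxyribonucleotides, was at 65.4, 35.8 and 48.5 CPM against 2.96, 5.79 and 3.89 CPM (log2 fold change 3.54 ± 0.41, adjusted p = 7.78e-05). The groups did not overlap in any of the 3. Pcna, the sliding clamp of the polymerases, was already present after sham at 47.8, 53.4 and 51 CPM and was at 123, 94.9 and 109 CPM after PH (log2 fold change 1.1 ± 0.2, adjusted p = 0.00372). Pole, the catalytic subunit of a replicative polymerase, was at 22.9, 25.8 and 18.6 CPM after PH and at 0, 0 and 2.59 CPM after sham (log2 fold change 4.78 ± 0.72, adjusted p = 0.000756). Mcm10, an initiation factor, went the other way, at 4.12, 8.17 and 7.57 CPM after PH and 27.4, 12.9 and 16.4 CPM after sham (log2 fold change -1.51 ± 0.4, adjusted p = 0.0329), and was not called within mix 5.

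Of 21 regulators of the cycle tested, 6 rose (28.6%, against 3.16% of all genes tested) and none fell. Ccnd1 (cyclin D1), which carries growth signals into the cycle, was at 99.7, 89.2 and 107 CPM after PH and at 26.3, 24.1 and 21.6 CPM after sham (log2 fold change 2.03 ± 0.26, adjusted p = 0.000194). Ccne1 (cyclin E1), which acts at the start of DNA synthesis, was at 5.95, 4.4 and 5.67 CPM against 1.85, 1.29 and 1.3 CPM (log2 fold change 1.83 ± 0.44, adjusted p = 0.02). E2f1, a transcription factor of DNA synthesis genes, was at 30.7, 18.2 and 25.5 CPM against 3.34, 3.54 and 3.02 CPM (log2 fold change 2.9 ± 0.41, adjusted p = 0.000448). All PH libraries lay above all sham libraries in these 3 genes. E2f2 and Rbl1, a relative of the retinoblastoma protein, rose too, by 1.62 ± 0.44 and 1.67 ± 0.3 on the log2 scale, with adjusted p of 0.0364 and 0.00312. Among the genes not called were the kinases Cdk2, Cdk4 and Cdk6, with log2 fold changes of 0.09, 0.22 and 0.37.

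The inhibitor of cyclin-dependent kinases Cdkn1a (p21) rose together with the genes of division. It was at 301, 286 and 242 CPM after PH and at 20.4, 21.9 and 26.8 CPM after sham (log2 fold change 3.59 ± 0.77, adjusted p = 0.0105), with no overlap. Cdkn1a also belongs to the p53 and DNA damage list, which had a median log2 fold change of 0.2. Of its 29 genes 4 rose (13.8%) and 1 fell (3.45%), against 3.16% and 2.45% of all genes tested. Also higher were H2afx, a histone variant whose phosphorylated protein, not measured here, marks broken DNA, and Chek1, a checkpoint kinase. Chek1 had no count after sham and was at least 3.93-fold higher after PH (adjusted p = 0.000958). H2afx had a log2 fold change of 1.55 ± 0.3 (adjusted p = 0.0052). Bbc3, which promotes cell death, was at 0.458, 1.89 and 2.52 CPM against 6.67, 6.44 and 3.89 CPM in sham (log2 fold change -1.72 ± 0.57, adjusted p = 0.0868). Trp53 itself, which encodes p53, and its targets Mdm2, Ccng1 and Bax were not called, with log2 fold changes of -0.16, 0.01, -0.2 and 0.36.

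**Figure D2:**
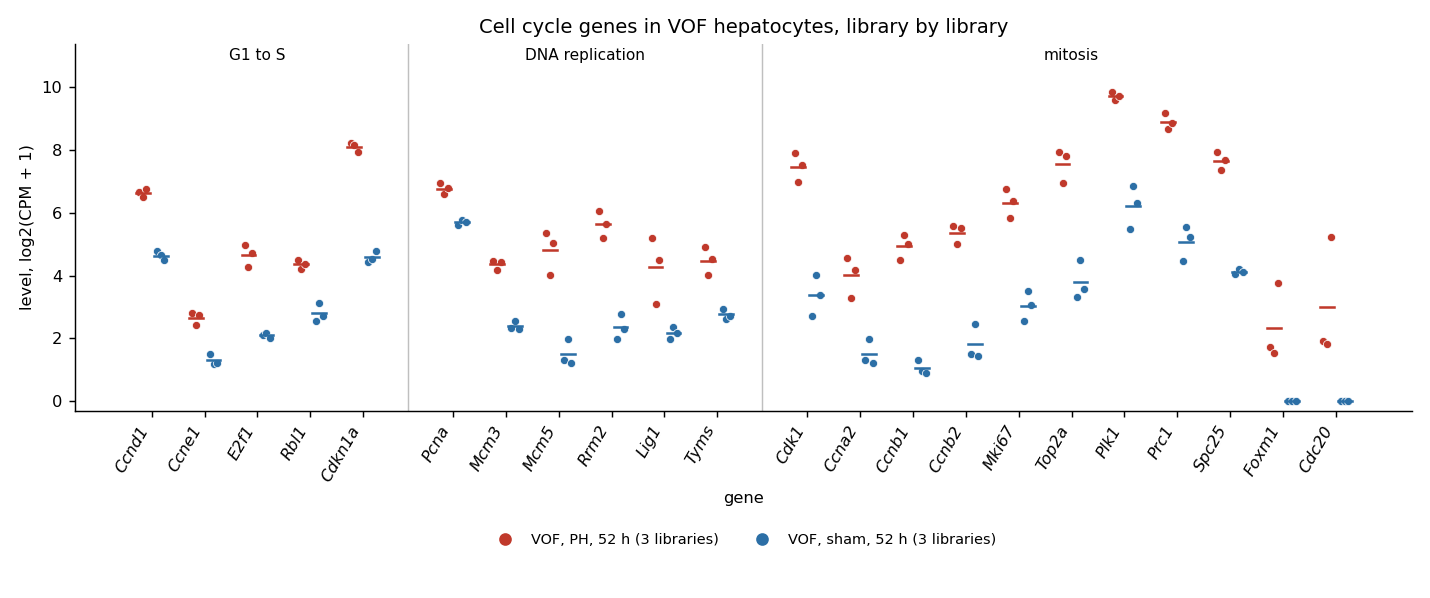
Level of 22 cell cycle genes (log2 of CPM + 1, vertical axis) in each PH library (red) and sham library (blue), with the group mean as a line. In every gene shown all PH points lie above all sham points, and in Foxm1 and Cdc20 1 PH point stands apart from the other two.

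The promoters of the called genes were searched for the short sequences through which genes of mitosis and DNA replication are switched on. RefSeq windows from 250 bases before to 50 bases after the start (GRCm38.p6) were matched by symbol for 7891 of the 11036 genes tested, and the letters CCAAT and TTTGAA (the CHR) were searched on both strands. Of 47 windows of mitosis genes called higher, 38 held the CHR (80.9%) and 35 the CCAAT letters (74.5%), against 12.6% and 37.9% of the 10146 windows of all genes tested. Both stood together in 33 windows (70.2%), against 5.09% of all. The CCAAT letters alone were not particular to this list, since they stood in 62.5% of the windows of DNA replication genes called higher and in 83.3% of the 6 windows of clock genes that fell. Of the 24 windows of DNA replication genes called higher, 2 held the CHR (8.33%) and 8 (33.3%) held 1 of the E2F letters TTTCCCGC, TTTGGCGC or TTTCGCGC, which 3.38% of all windows hold and which can overlap each other on opposite strands. The 47 mitosis windows came from 45 of the 56 genes called higher, and the 24 replication windows from 20 of 23. As 56 of the 60 mitosis genes were called, their shares describe the list and do not test the response to PH. A match is a run of letters, and binding was not measured. The windows of the mitosis genes Spc25, Prc1 and Mki67 and of the helicase genes Mcm3 and Mcm5 are shown because these had the lowest adjusted p among the genes of each list with such a match. Capitals mark the CCAAT and CHR letters in the mitosis genes and the E2F letters in the helicase genes, on either strand, and each sequence is given 5′ to 3′ along its gene.
Spc25: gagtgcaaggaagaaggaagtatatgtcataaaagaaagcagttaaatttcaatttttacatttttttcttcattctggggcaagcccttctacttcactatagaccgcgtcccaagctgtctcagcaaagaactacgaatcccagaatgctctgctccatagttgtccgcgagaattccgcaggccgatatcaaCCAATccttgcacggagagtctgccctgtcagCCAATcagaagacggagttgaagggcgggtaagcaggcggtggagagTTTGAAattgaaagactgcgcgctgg
Prc1: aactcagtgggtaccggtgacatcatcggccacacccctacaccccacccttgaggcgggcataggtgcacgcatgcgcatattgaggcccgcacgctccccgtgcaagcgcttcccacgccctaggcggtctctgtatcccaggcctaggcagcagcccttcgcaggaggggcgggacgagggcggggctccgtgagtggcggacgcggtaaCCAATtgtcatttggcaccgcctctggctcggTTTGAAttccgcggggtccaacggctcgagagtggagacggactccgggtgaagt
Mki67: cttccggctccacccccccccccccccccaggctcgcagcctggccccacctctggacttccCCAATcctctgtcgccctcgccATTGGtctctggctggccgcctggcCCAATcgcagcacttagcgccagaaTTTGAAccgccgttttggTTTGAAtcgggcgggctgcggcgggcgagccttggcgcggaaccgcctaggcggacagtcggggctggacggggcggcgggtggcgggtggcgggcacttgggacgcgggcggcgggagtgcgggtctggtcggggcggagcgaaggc
Mcm3: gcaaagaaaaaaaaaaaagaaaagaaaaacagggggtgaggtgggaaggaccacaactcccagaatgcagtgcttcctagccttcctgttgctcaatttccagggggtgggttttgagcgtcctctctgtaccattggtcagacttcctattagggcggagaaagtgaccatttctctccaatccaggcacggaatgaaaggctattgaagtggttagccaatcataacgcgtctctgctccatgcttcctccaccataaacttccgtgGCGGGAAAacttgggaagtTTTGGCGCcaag
Mcm5: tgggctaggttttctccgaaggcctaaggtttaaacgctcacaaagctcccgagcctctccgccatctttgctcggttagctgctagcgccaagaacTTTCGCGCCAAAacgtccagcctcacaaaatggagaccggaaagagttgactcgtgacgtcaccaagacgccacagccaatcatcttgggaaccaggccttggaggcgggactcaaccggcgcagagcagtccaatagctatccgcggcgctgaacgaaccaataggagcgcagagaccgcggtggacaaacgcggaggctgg
The 3 mitosis windows lie at chr2:69206164-69206463 (minus strand), chr7:80294201-80294500 (plus strand) and chr7:135716330-135716629 (minus strand), and the helicase windows at chr1:20820263-20820562 (minus strand) and chr8:75109259-75109558 (plus strand). In Spc25 and Mki67 the CHR lay behind more than 1 CCAAT match, and in Prc1 behind a single match. Mcm3 and Mcm5 held 2 E2F matches each, which overlap in Mcm5.

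Of 31 tested genes of growth signalling 1 rose and 1 fell (3.23% each), at a median log2 fold change of -0.11, shares near those of all genes tested (3.16% and 2.45%). Ier3, an immediate early gene, was at 86.9, 140 and 148 CPM after PH and 29.3, 79.8 and 40.2 CPM after sham (log2 fold change 1.32 ± 0.42, adjusted p = 0.0727). Erbb3, a receptor of the epidermal growth factor family, fell to 16.9, 22 and 21.4 CPM from 50, 57.6 and 49.3 CPM (log2 fold change -1.38 ± 0.22, adjusted p = 0.00146). Met, the receptor of hepatocyte growth factor, had a log2 fold change of -0.49 ± 0.16 (adjusted p = 0.0856), below the 2-fold minimum, and Egfr and Jun of 0.26 and 0.28. None of the 13 tested genes of the growth hormone and IGF axis was called by edgeR or DESeq2, and 4 had an unadjusted p under 0.05, 1 higher and 3 lower. Igf1, the growth factor that the liver secretes, was at 760, 679 and 772 CPM against 816, 717 and 709 CPM (log2 fold change -0.02 ± 0.17, adjusted p = 0.972), so that the groups overlapped.

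Of 29 genes that define the hepatocyte none rose and 1 fell (3.45%, against 2.45% of all genes tested), at a median log2 fold change of 0.08. The exception was Cebpa, a transcription factor of mature hepatocytes, at 38.4, 37.1 and 42.2 CPM after PH and 119, 101 and 98.1 CPM after sham (log2 fold change -1.43 ± 0.18, adjusted p = 0.000155), with no overlap and with the same call in mix 5. Hnf4a, a master regulator of the hepatocyte, was at 336, 322 and 352 CPM against 342, 312 and 304 CPM (log2 fold change 0.08 ± 0.15, adjusted p = 0.832), and the groups overlapped. Of the plasma proteins Alb had a log2 fold change of 0.38 ± 0.27 (adjusted p = 0.457) and Ahsg, a carrier of calcium phosphate, of 0.63 ± 0.29 (adjusted p = 0.218).

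Acute phase genes, which hepatocytes switch on in inflammation, were measured next. Of 30 tested none rose and 1 fell (3.33%, against 2.45% of all genes tested), at a median log2 fold change of 0.13. Saa1 (serum amyloid A) was at 5170, 7010 and 4990 CPM after PH and at 3070, 6110 and 5700 CPM after sham (log2 fold change 0.21 ± 0.68, adjusted p = 0.906). Lcn2 (lipocalin) was at 2540, 3740 and 3060 CPM against 1820, 1970 and 1960 CPM, without overlap, yet with a log2 fold change of 0.7 ± 0.61 it did not pass the test (adjusted p = 0.554). The gene that fell was Il1rn, which encodes an antagonist of interleukin receptors, at 5.95, 8.17 and 6.62 CPM against 19.3, 13.2 and 17.3 CPM (log2 fold change -1.27 ± 0.38, adjusted p = 0.0539). None of the 28 coagulation and complement genes was called by edgeR or DESeq2, and 2 had an unadjusted p under 0.05, both lower.

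Of 52 cytochrome P450 genes 1 rose and 1 fell (1.92% each), and of 46 genes of conjugation and antioxidant defence again 1 rose and 1 fell (2.17% each), shares near those of all genes tested, with median log2 fold changes of -0.14 and -0.05. Cyp4a31, a fatty acid hydroxylase, was at 55.4, 91.1 and 61.8 CPM after PH and 23, 21.9 and 27.2 CPM after sham (log2 fold change 1.52 ± 0.46, adjusted p = 0.0569). Sult2a8, a sulfotransferase of the liver, fell to 40.3, 33.3 and 40 CPM from 282, 168 and 205 CPM (log2 fold change -2.52 ± 0.42, adjusted p = 0.00184), a change that mix 5 also showed. In bile acid synthesis and transport 2 of 29 genes rose (6.9%, against 3.16% of all genes tested) and none fell. Those that rose were the transporters Slco1a1 (log2 fold change 1.96 ± 0.48, adjusted p = 0.0241) and Slc51b (1.76 ± 0.45, adjusted p = 0.0268). Cyp7a1, the rate-limiting enzyme of bile acid synthesis, was at 27.4, 21.4 and 26.2 CPM against 57.1, 175 and 113 CPM and did not overlap, but its log2 fold change of -2.2 ± 0.77 did not pass the test (adjusted p = 0.103). It was called lower in 6 of 17 alternative fits.

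In lipid and sugar metabolism the called genes were mainly single regulators and enzymes. Of 32 genes of fatty acid synthesis and lipid storage 3 fell (9.38%) and 1 rose (3.12%), at a median log2 fold change of -0.23. Of all genes tested 2.45% fell and 3.16% rose. Thrsp, which responds to thyroid hormone and promotes lipogenesis, was at 18.3, 22.6 and 31.5 CPM after PH and 64.1, 193 and 81.2 CPM after sham (log2 fold change -2.21 ± 0.53, adjusted p = 0.0199). Mlxipl, the transcription factor that senses carbohydrate, was at 37.5, 39 and 41.9 CPM against 94.1, 79.8 and 80.4 CPM (log2 fold change -1.1 ± 0.18, adjusted p = 0.00174), and both it and Thrsp were also called in mix 5. Acacb, an acetyl-CoA carboxylase, fell as well (log2 fold change -1.46 ± 0.35, adjusted p = 0.0219). Apoa4, an apolipoprotein, rose to 1250, 846 and 1130 CPM from 257, 425 and 318 CPM (log2 fold change 1.69 ± 0.3, adjusted p = 0.00252). In fatty acid oxidation 1 of 35 genes rose and 1 fell (2.86% each), shares near those of all genes tested. The thioesterase Acot1 rose (log2 fold change 1.65 ± 0.57, adjusted p = 0.0971, called in 8 of 17 alternatives but not by DESeq2 or in mix 5). The transcription factor Ppara fell (log2 fold change -1.12 ± 0.32, adjusted p = 0.0504). In cholesterol synthesis 2 of 25 genes fell (8%, against 2.45% of all genes tested), Sc5d and Insig1, and none rose.

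Of 29 genes of glucose metabolism 2 rose (6.9%) and 1 fell (3.45%), at a median log2 fold change of 0.08. Of all genes tested 3.16% rose and 2.45% fell. Pkm, a pyruvate kinase typical of dividing cells, rose to 58.1, 58.4 and 61.2 CPM from 18.2, 29.6 and 23.3 CPM (log2 fold change 1.32 ± 0.25, adjusted p = 0.00432), as did Pfkfb3, which stimulates glycolysis (1.42 ± 0.38, adjusted p = 0.0337). Pck1 of gluconeogenesis, at 1080, 1250 and 1100 CPM against 1300, 935 and 1180 CPM, was not called. Of 43 genes of amino acid and urea metabolism 3 rose (6.98%) and 1 fell (2.33%). Psat1, an enzyme of serine synthesis, was at 9.61, 27.6 and 17.3 CPM after PH and at 2.96, 2.25 and 2.59 CPM after sham (log2 fold change 2.75 ± 0.56, adjusted p = 0.00736), and Psph, the next enzyme of that pathway, had a log2 fold change of 1.12 ± 0.33 (adjusted p = 0.0517). Sds, which breaks serine down, fell to 58.1, 18.2 and 34 CPM from 88.6, 83.4 and 94.2 CPM (log2 fold change -1.25 ± 0.35, adjusted p = 0.0453).

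**Figure D3:**
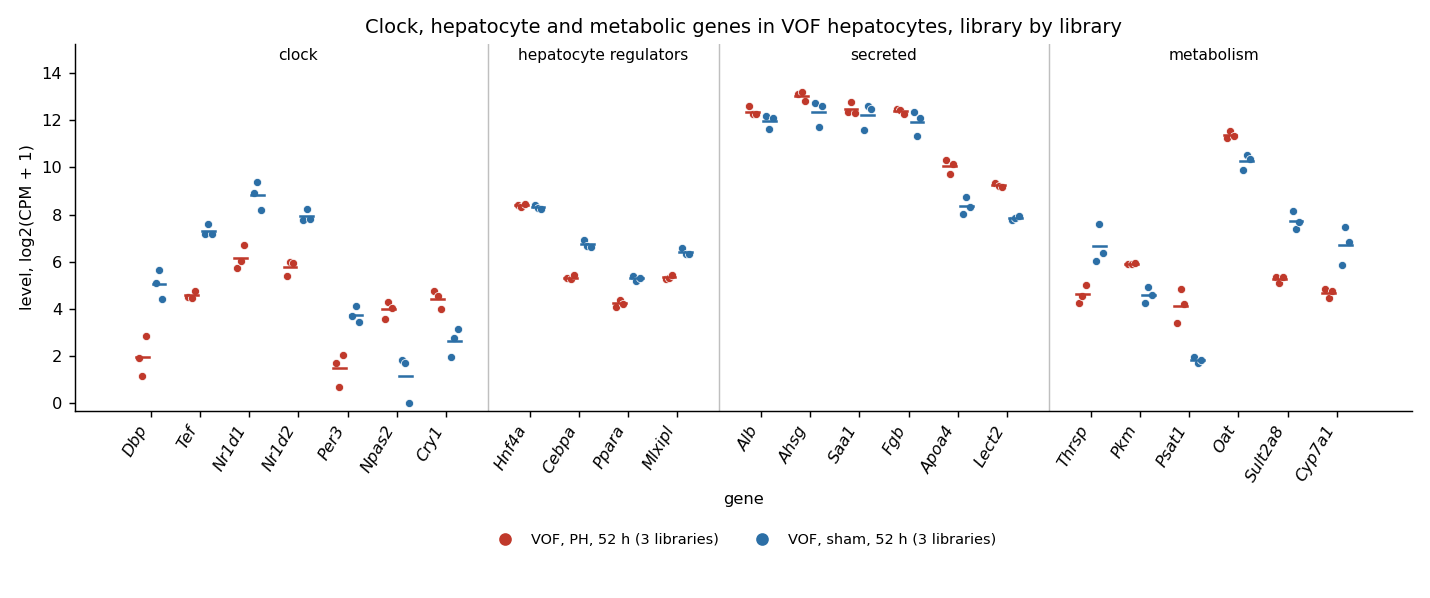
Level of 23 clock, hepatocyte and metabolic genes (log2 of CPM + 1, vertical axis) in each PH library (red) and sham library (blue), with the group mean as a line. Hnf4a, Saa1 and Fgb overlap between the groups, whereas Tef, Nr1d2, Cebpa and Sult2a8 lie wholly lower and Apoa4, Lect2 and Psat1 wholly higher after PH.

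Genes that differ along the liver lobule did not move as 1 group. Of 18 pericentral genes 4 rose (22.2%, against 3.16% of all genes tested) and none fell (median log2 fold change 0.18). Of 20 periportal genes none rose and 3 fell (15%, against 2.45% of all genes tested), at a median of -0.43. Oat, an enzyme of ornithine breakdown, was at 2400, 2960 and 2580 CPM after PH and at 951, 1480 and 1290 CPM after sham (log2 fold change 1.1 ± 0.32, adjusted p = 0.051). Lect2, a secreted protein, was at 647, 594 and 570 CPM against 218, 229 and 246 CPM (log2 fold change 1.38 ± 0.33, adjusted p = 0.0213). The other pericentral genes that rose were Slc1a4 and Lhpp, whereas the classical pericentral enzyme Cyp2e1 was at 511, 775 and 540 CPM against 1060, 647 and 1000 CPM and was not called (adjusted p = 0.22). The periportal genes that fell were Sult5a1 (log2 fold change -1.66 ± 0.32, adjusted p = 0.00531), Sds and Aldh1b1. No zonation gene that rose was called in mix 5 alone, and 2 of the 3 periportal genes were.

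Of 28 genes biased to females in mouse liver 2 fell (7.14%, against 2.45% of all genes tested), Hao2 and Slc22a26, and of 25 biased to males 2 rose (8%, against 3.16%), Slco1a1 and Ugt2b38, with median log2 fold changes of -0.31 and 0. Hao2, a peroxisomal oxidase, was at 3.2, 2.51 and 0.63 CPM after PH and at 40.4, 7.4 and 9.07 CPM after sham (log2 fold change -3.27 ± 1.09, adjusted p = 0.0856), so that the size of its change rested on sham replicate 1. None of these 4 genes was called in mix 5 alone. Xist, which silences an X chromosome in female cells, was at 399 to 615 CPM after PH and 213 to 736 CPM after sham.

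Fetal and progenitor genes tended upwards, but 2 of the 19 tested passed the test (10.5%, against 3.16% of all genes tested). Tnfrsf12a, the receptor of the cytokine TWEAK, was at 19.2, 11.9 and 12.9 CPM after PH and at 0, 1.29 and 2.16 CPM after sham (log2 fold change 3.66 ± 0.52, adjusted p = 0.000494). Sox9, a transcription factor of progenitors and bile ducts, was at 44.8, 26.4 and 36.3 CPM against 22.2, 10.3 and 15.6 CPM (log2 fold change 1.18 ± 0.36, adjusted p = 0.0628). In 10 of the 19 genes every PH library lay above every sham library, compared with 15.9% of all genes tested. Krt8 and Krt18, the keratins of hepatocytes, were among them, with log2 fold changes of 0.76 and 0.92 and adjusted p of 0.0339 and 0.0329, which miss the 2-fold minimum. Of 38 ribosome biogenesis genes 2 rose (5.26%, against 3.16% of all genes tested), Polr1e and Nob1, but 32 had a positive log2 fold change (median 0.38). In 19 of the 38 genes every PH library lay above every sham library, compared with 15.9% of all genes tested. Polr1e was called in 11 and Nob1 in 6 of 17 alternatives, and DESeq2 and the fit of mix 5 alone called no gene of the list. Of 28 genes of protein folding and stress 1 fell (3.57%, against 2.45% of all genes tested). This was Chac1, which degrades glutathione (log2 fold change -1.93 ± 0.48, adjusted p = 0.0245).

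Markers of other cells were present in the preparation. None of the 13 genes of Kupffer cells and macrophages, the resident phagocytes of the liver, was called by edgeR or DESeq2 in the model of the 15 VOF libraries, and 6 had an unadjusted p under 0.05, all higher. In the model of 36 libraries edgeR called 1 of them higher. All 13 had a positive log2 fold change, with a median of 0.85, and their summed level was 846 to 1170 CPM after PH and 484 to 719 CPM after sham, which do not overlap. Clec4f, their defining marker, was at 151, 166 and 183 CPM against 87.1, 143 and 99.8 CPM (adjusted p = 0.139). In bulk RNA more cells of a type and more RNA per cell cannot be told apart, and the part of these cells in the changes above was not tested. The summed level of 15 endothelial genes was 648 to 656 CPM after PH and 553 to 656 CPM after sham. Of these 1 rose (6.67%, against 3.16% of all genes tested), Fabp4, a fatty acid binding protein (log2 fold change 3.2 ± 0.5, adjusted p = 0.00108). Stab2 and Lyve1 were not called (-0.23 and 0). Stellate cell genes summed to 332 to 542 CPM after PH and 242 to 455 CPM after sham with none of 13 called by edgeR or DESeq2 in the VOF model and 2 at an unadjusted p under 0.05, both higher, and with 1 called higher in 36 libraries. The 6 lymphocyte genes summed to 170 to 322 CPM against 136 to 247 CPM, with none called by either tool in the VOF model and 2 at an unadjusted p under 0.05, both lower. In 36 libraries edgeR called 1 of them higher and 2 lower, and in mix 5 alone 1 lower. The 5 erythroid genes summed to 10.1 to 55.9 CPM against 13 to 28.6 CPM, with none called by edgeR or DESeq2 and none at an unadjusted p under 0.05. Of 3 bile duct genes tested Sox9 was called. No neutrophil marker was tested, so that these cells were not analysed here.

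**Figure D4:**
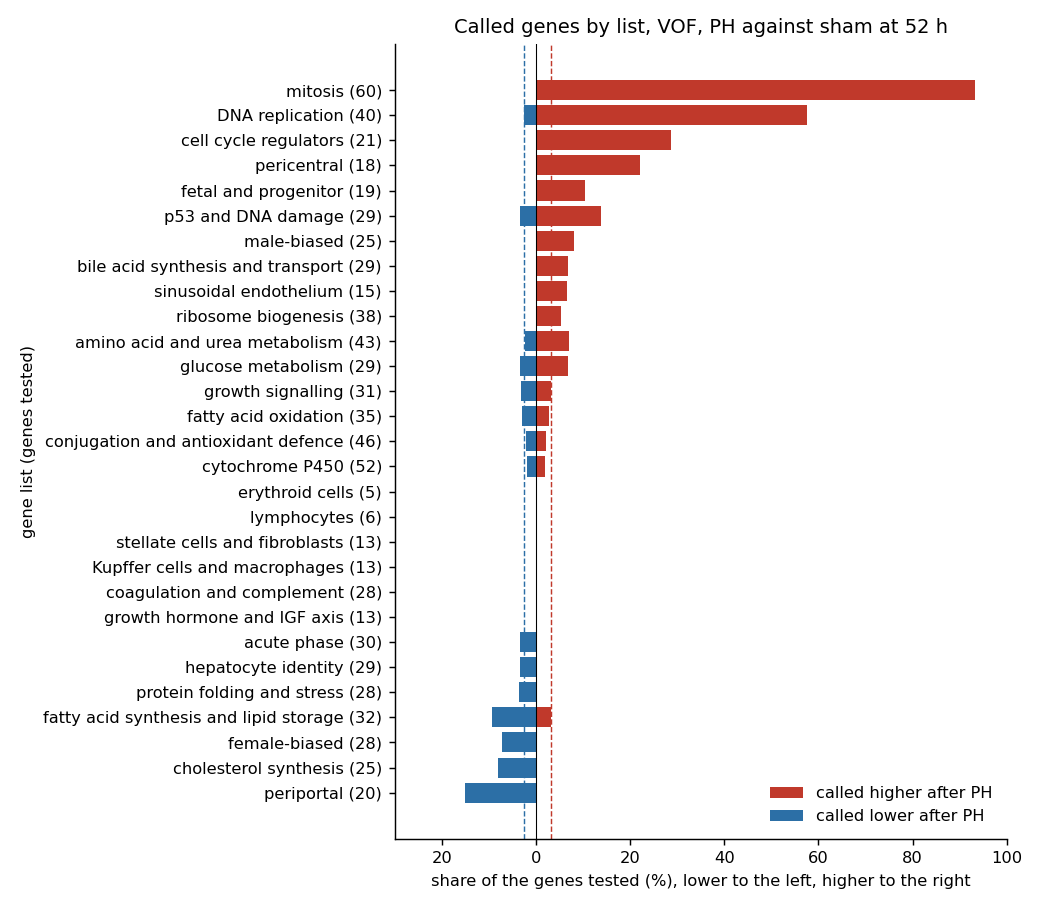
Share of the tested genes of each list called higher (red, to the right) or lower (blue, to the left) after PH, in percent, with the number of genes tested in brackets. The dashed lines mark the shares of all genes tested, 3.16% higher and 2.45% lower. Mitosis, with 56 of 60 genes higher, and DNA replication, with 23 of 40, extend farthest.

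Clock genes stood out among those that fell, and a list of 20 was drawn up after their values had been seen, so that its counts are descriptions. In it 6 genes fell (30%) and 2 rose (10%), against 2.45% and 3.16% of all genes tested. Tef, a transcription factor of the clock's output, was at 21.5, 21.4 and 26.5 CPM after PH and at 145, 193 and 143 CPM after sham (log2 fold change -2.78 ± 0.3, adjusted p = 4.6e-05). Nr1d1, the repressor REV-ERB alpha, was at 52.2, 64.1 and 103 CPM against 475, 669 and 295 CPM (log2 fold change -2.7 ± 0.4, adjusted p = 0.000725). Dbp, a relative of Tef, was at 2.75, 1.26 and 6.3 CPM against 33, 48.9 and 20.7 CPM (log2 fold change -3.13 ± 0.62, adjusted p = 0.00589). Nr1d2 fell too (-2.2 ± 0.31, adjusted p = 0.000448), with Per3 and Per2, and the groups overlapped only in Per2. Npas2, a partner of the clock activator BMAL1, went the other way, at 11, 18.9 and 15.4 CPM against 2.59, 2.25 and 0 CPM (log2 fold change 3.09 ± 0.59, adjusted p = 0.00473), as did the repressor Cry1 (1.93 ± 0.49, adjusted p = 0.0268). Arntl, which encodes BMAL1 itself, was at 4.57, 6.28 and 5.36 CPM against 2.59, 1.29 and 1.3 CPM and was not called (adjusted p = 0.157), nor was Clock. Surgery was done in the morning under a fixed light cycle per the study's methods. In their titles the sham libraries carry Sh2d where the PH libraries carry 52h. The part of the hour of collection of each library in these differences was not tested.

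The E-box is the letters CACGTG through which the clock's activators act. It stood in 2 of the 6 promoter windows of the clock genes that fell, compared with 10% of all windows of genes tested. These 6 windows belong to 5 genes, and both windows with the E-box are windows of Tef. A window of Tef is shown with its E-box in capitals, because Tef was the only one of those genes with a match. It lies at chr15:81802423-81802722 (plus strand).
Tef: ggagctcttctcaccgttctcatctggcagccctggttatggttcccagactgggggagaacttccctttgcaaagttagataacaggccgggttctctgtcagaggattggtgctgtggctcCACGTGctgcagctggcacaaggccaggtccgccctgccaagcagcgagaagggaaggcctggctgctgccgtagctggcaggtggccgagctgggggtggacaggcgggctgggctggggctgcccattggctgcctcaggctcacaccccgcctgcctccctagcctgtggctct

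The largest single changes included genes that are in none of the lists. Fam83d, a spindle protein, was at 346, 213 and 273 CPM after PH and had no count after sham, at least 247-fold higher (adjusted p = 1.45e-07). Fam83d is not among the genes that the batch step appears to have left unchanged, so that this bound rests on adjusted values. In the model of 36 libraries its log2 fold change was 3.79 in young females, 4.95 in old females and 1.61 in very old males. The sham libraries of very old males held it at 118, 159 and 214 CPM. Neurl1b, a ubiquitin ligase, was at 158, 66 and 96.8 CPM against 0, 0 and 1.73 CPM (log2 fold change 7.6 ± 0.54, adjusted p = 6.51e-07). Prr11, which had no count after sham, was at least 7.06-fold higher, and Kifc1, a spindle motor, had a log2 fold change of 5.48 ± 0.62 (adjusted p = 0.000112). Cdca2 was at 387, 385 and 355 CPM against 0, 0 and 6.48 CPM (log2 fold change 7.53 ± 2.32, adjusted p = 0.0684). Its deposited values in other VOF libraries exceed the largest count that the UMI correction can give, and it was called in 9 of 17 alternative fits. Among the genes that fell, Rnf39 had no count after PH and was at 4.45, 14.8 and 10.4 CPM after sham, at least 7.05-fold lower after PH (adjusted p = 0.0266). Ube2nl was at 0, 1.89 and 0.63 CPM against 9.64, 14.8 and 16 CPM (log2 fold change -4.11 ± 0.68, adjusted p = 0.0018). Sucnr1, the receptor of succinate, had a log2 fold change of -3.89 ± 0.67 (adjusted p = 0.0024), Trim12c of -3.1 ± 0.46 (adjusted p = 0.00063) and Arrdc3 of -2.77 ± 0.31 (adjusted p = 5.72e-05). Tap2, Gm816 and 1810008I18Rik completed the 12 genes with the largest falls, with log2 fold changes of -2.72, -2.66 and -2.64.

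To learn whether this response depended on age, it was compared with that of young females (YF, 11 to 14 weeks) and old females (OF, 60 weeks), also WT, at the same time and with 3 libraries per group, in a model of the 36 PH and sham libraries of 52 h. These comparisons share the VOF libraries. None of the VOF libraries at 52 h was prepared in a mix that held a YF or OF library of this model. Each difference from YF or OF given below is thus one of age and of mix at once, and the part of each was not tested. The test of the difference itself called 25 genes higher (0.226% of 11047) and 18 lower (0.163%) in VOF than in YF, and no gene of the mitosis or DNA replication lists was among them. The count of higher genes went from 6 without VOF sham replicate 1 to 46 without VOF sham replicate 2. In that model PH raised 379 genes (3.43%) and lowered 376 (3.4%) in VOF, and 358 (3.24%) and 262 (2.37%) in YF. Of the mitosis genes 55 of 60 were called higher in VOF, with a median log2 fold change of 3.69, and 53 in YF, with a median of 2.69. DNA replication genes had medians of 1.66 in VOF and 1.39 in YF. In OF 606 genes rose (5.49%) and 399 fell (3.61%). Against OF the difference was called for 76 genes in the higher (0.688%) and 123 in the lower direction (1.11%), and these were 115 and 241 without OF, PH replicate 2, 30 and 45 without OF, PH replicate 1, and 25 and 38 without OF sham replicate 2. DESeq2 called 26 in the lower direction. Of the mitosis genes Spc25 alone was among them, with a log2 fold change of 3.61 in VOF and 2.08 in OF (difference 1.53 ± 0.38, adjusted p = 0.0418). No gene of DNA replication was. A difference that missed the threshold does not show that the responses were alike: that of Cdk1 was 4.14 in VOF, 2.7 in YF and 4.79 in OF.

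Genes that differed from YF included the 3 genes of complement C1q, which Kupffer cells make. C1qa, C1qb and C1qc had differences of 1.25 ± 0.31, 1.13 ± 0.27 and 1.26 ± 0.29 on the log2 scale (adjusted p = 0.0678, 0.0631 and 0.0617), from log2 fold changes of 0.66, 0.87 and 0.93 in VOF and -0.6, -0.26 and -0.33 in YF. They were the 3 called genes among the 13 of the Kupffer list, C1qb kept its call in 9 of 18 alternatives, and C1qa and C1qc were picked out after their values were seen. Fcna, a ficolin of macrophages, had a difference of 1.85 ± 0.28 (adjusted p = 0.00138), at 58.1, 49.7 and 47.6 CPM after PH and 17.4, 25.8 and 24.6 CPM after sham in VOF against 26.6, 41 and 29 CPM and 42.8, 53.9 and 46.2 CPM in YF. Pld4, a nuclease of phagocytes, had a difference of 2.22 ± 0.43 (adjusted p = 0.0158). In the lower direction the largest differences were those of Gm16277 (-4.38 ± 0.86), Gm43775 (-2.82 ± 0.61) and Pfn1, which binds actin (-2.51 ± 0.56). Rnf39, which had no count in VOF after PH, also differed from YF (adjusted p = 0.0158).

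The called differences from OF included metabolic and secreted genes with a negative log2 fold change in OF. Cyp1a2, a pericentral P450, had a log2 fold change of 0.66 in VOF and -1.05 in OF (difference 1.71 ± 0.45, adjusted p = 0.057). Gnmt, a methyltransferase of methionine metabolism, had 0.24 and -1.14 (difference 1.38 ± 0.37, adjusted p = 0.0575), and Mup1, a major urinary protein whose counts may be shared with its near-identical copies, had -0.43 and -2.16 (difference 1.73 ± 0.47, adjusted p = 0.0575). Orm3, an acute phase gene, was at 496, 926 and 764 CPM after PH and 607, 873 and 673 CPM after sham in VOF against 127, 174 and 106 CPM and 591, 650 and 1490 CPM in OF (difference 2.77 ± 0.59, adjusted p = 0.0205). Tnfrsf12a had a log2 fold change of 3.64 in VOF and 0.66 in OF (difference 2.98 ± 0.78, adjusted p = 0.0522).

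**Figure D5:**
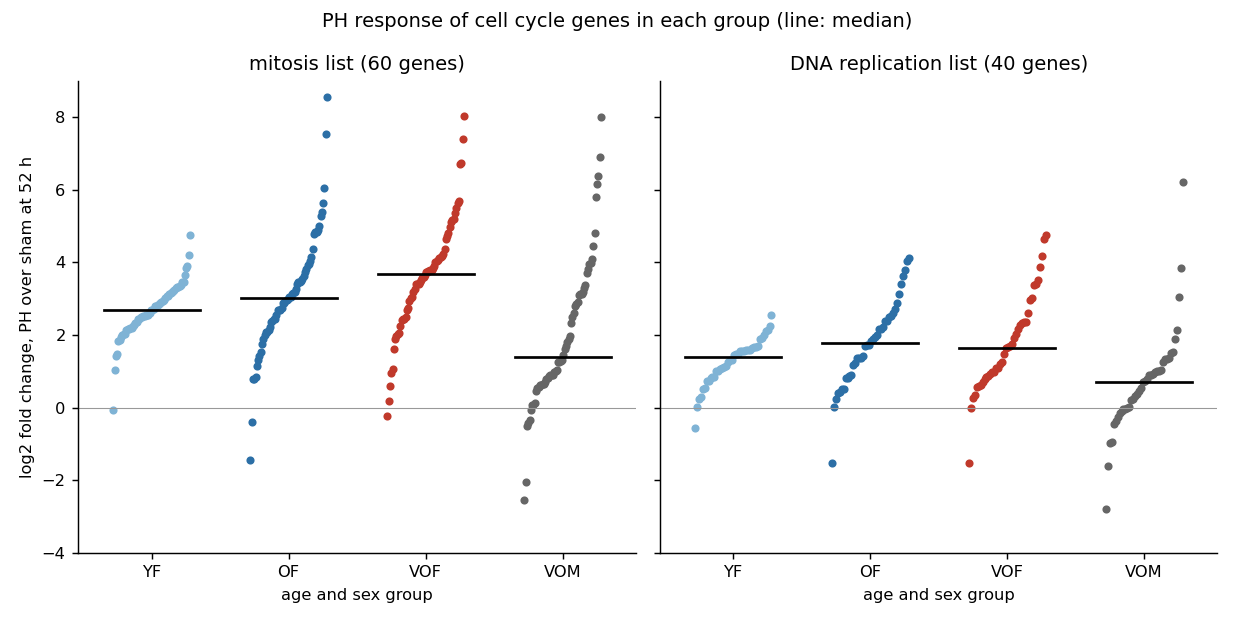
Log2 fold change of PH over sham at 52 h (vertical axis) for each gene of the mitosis list (left) and the DNA replication list (right) in YF, OF, VOF and VOM, sorted within each group, with the median as a line. The mitosis median is 2.69 in YF, 3.02 in OF, 3.69 in VOF and 1.39 in VOM.

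Very old males (VOM, 100 weeks, WT) differed more, with 728 genes higher (6.59%) and 586 lower (5.3%) in the response of VOF. In VOM itself 834 genes rose (7.55%) and 915 fell (8.28%). In the 3 VOM sham libraries, however, the 10 most abundant genes took 48.3 to 53.04% of the counts, and the 5 largest differences, in Sgo2a, Cyp2a5, Kcna2, Pde4a and 9030619P08Rik, came from genes whose values in those libraries exceed the largest count of the UMI correction. The part of these libraries in the differences was not tested. VOF and VOM shared no mix either, so that sex and mix cannot be told apart here. Of the mitosis genes 19 were called higher in VOF than in VOM and none lower, and of the DNA replication genes 14 and 1. Cdk1 had a log2 fold change of 4.14 in VOF and 1.31 in VOM (difference 2.83 ± 0.53, adjusted p = 0.000378), and Mki67 of 3.41 and 1.71 (difference 1.7 ± 0.63, adjusted p = 0.0669). Pcna had 1.09 in VOF and -0.02 in VOM (difference 1.11 ± 0.28, adjusted p = 0.00692). Of the P450 genes 27 were called higher and 3 lower in the response of VOF, and the list's median log2 fold change was -0.15 in VOF and -1.26 in VOM. Of the acute phase genes 1 was called higher and 9 lower, with medians of 0.12 and 0.99. Igfbp1, a binding protein of insulin-like growth factors, had 0.77 in VOF and 3.32 in VOM (difference -2.55 ± 0.58, adjusted p = 0.00288).

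The counts rest on 3 libraries per group. On simulated counts edgeR called 95% of the genes changed by 2 on the log2 scale and 42% of those changed by 1, and also 15 unchanged genes. A change of 1 is the 2-fold minimum itself, so that a gene estimated below it was not called at any p. Genes of low level were not among those changed, and the simulated counts held no difference between mixes. The genes not called may hold changes near 2-fold. Without the normal liver libraries 376 genes were called higher and 310 lower. Without PH replicate 3, which is alone in its mix, 219 genes were called higher and 179 lower. Without PH replicate 1 the lower genes numbered 173, and a model that also held the mix called 105 and 74 genes. Of 97 called genes among the 182 named by rule, 41 lost their call in mix 5 alone and 51 in the model with the mix.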

How the data were processed

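CEL-Seq2 libraries of isolated hepatocytes were sequenced by the authors, counted with celseq2 on GRCm38 per the study's methods (the labels name GRCh38 and bcl2fastq 2.20), filtered for low expression and adjusted for batch with ComBat-Seq. The deposited values are UMI-corrected estimated counts, 11049 genes by 133 libraries. In 448 genes they are not whole (30966 values). Of these, 394 genes keep the UMI correction formula in every library and so appear unchanged by the batch step. All values were rounded here. A UMI set of 4096 cannot give a corrected count above 34069.6, and 15 genes exceed this in VOF libraries. The batch step can carry differences between mixes into the values. Genes that reached 0.5 CPM in 1 or more of the 15 VOF libraries not marked X were fitted with edgeR 4.0.16 (R 4.3.3, TMM scaling, quasi-likelihood test, 10 residual degrees of freedom). Calls had a Benjamini-Hochberg adjusted p under 0.1 and a change of 2-fold or more. Differences between groups were tested in 36 libraries. Symbols and coordinates came from GENCODE vM21. The code recovered 42% and 95% of changes of 1 and 2 on the log2 scale in a test on simulated counts of 11036 genes. In it the 2-fold minimum was applied and no difference between mixes was simulated.

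The genes, lists and rules were chosen with earlier results of these data known. Named genes were the 12 called genes with the largest change in each direction among those with a symbol, no overlap between groups and a mean count of at least 10, up to 4 called genes in each direction and the 2 most abundant genes of each list, a set of known genes, and for each difference between groups the 5 largest in each direction. Other genes are named only as members of their list. Of the set, 2 genes were not analysed here, and some called genes of the lists are not reported here. Alternatives were DESeq2 1.42.0, RLE scaling, other filters and thresholds, other sets of libraries, a replicate block, a term for the mix and leaving out each library. The fits of mix 5 alone and without normal liver, the clock list and the genes C1qa and C1qc were chosen after seeing the data. CEL-Seq2 counts 3' ends, so that levels were not compared between genes. The other libraries of the series were not used here.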

Additional observations from a re-analysis of the deposited data

Results flagged for a closer look

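The response to PH differed between VOF and another group for the genes given here, by the test of the difference itself (edgeR quasi-likelihood test in 36 libraries). Values are differences on the log2 scale, VOF minus the other group. VOF shared no mix with these groups, so that a difference between groups cannot be told apart from one between mixes. From YF, 25 genes differed in the higher and 18 in the lower direction. The largest were Hist1h2af (2.3), Pld4 (2.22), Trappc6a (2.18), Fcna (1.85) and Tmem141 (1.78), and in the lower direction Gm16277 (-4.38), Gm43775 (-2.82), Pfn1 (-2.51), Gm5121 (-2.16) and Gm5524 (-2.16).

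From OF, 76 genes differed in the higher and 123 in the lower direction. The largest were Inafm2 (3.02), Tnfrsf12a (2.98), Orm3 (2.77), 2810408I11Rik (2.57) and Cdk5r1 (2.49), and in the lower direction Gm12669 (-10.18), Loxl4 (-6.79), Ube2nl (-5.5), Fstl1 (-3.85) and Trim12c (-3.62). The OF sham libraries held no count of Gm12669 and Loxl4, and OF, PH replicate 2 none of Gm12669, so that their fitted values and ranks depend on the prior count of the fit and are no measure of size.

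From VOM, 728 genes differed in the higher and 586 in the lower direction. The largest were Sgo2a (19.01), Cyp2a5 (18.25), Kcna2 (17.41), Pde4a (17.23) and 9030619P08Rik (16.59), whose values in the VOM sham libraries exceed what the UMI correction can give, and in the lower direction Igdcc4 (-5.33), Rab30 (-4.39), Ube2nl (-4.33), Cidec (-4.09) and Inhbe (-3.9). Of the genes named in any case, Pcna (1.11), Mki67 (1.7), Cdk1 (2.83) and Igfbp1 (-2.55) differed from VOM.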

How the results depend on the processing

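The 349 higher and 270 lower genes became 147 and 133 in mix 5 alone, an alternative chosen after seeing the data, and 105 and 74 in a model with a term for the mix. Leaving out 1 library gave 219 to 329 higher and 173 to 251 lower genes, the fewest higher without PH replicate 3 and the fewest lower without PH replicate 1. The other alternatives kept both counts within 1.5 times, and no value reversed. The difference from YF gave 7 higher genes at an adjusted p under 0.05 with no fold minimum and 16 by DESeq2, and 8 lower genes in the 12 libraries alone and 11 by DESeq2. The difference from OF gave 42 and 70 genes at an adjusted p under 0.05 with no fold minimum and 34 and 54 in the 12 libraries alone, and 26 lower by DESeq2. Leaving out 1 library gave 6 to 46 higher and 7 to 39 lower genes against YF, with counts moved by over 1.5 times without VOF, PH replicate 3, any VOF sham replicate, any YF, PH replicate, or YF sham replicate 2 or 3. Against OF it gave 25 to 115 and 38 to 241, moved likewise without any OF, PH replicate, OF sham replicate 2 or 3, or VOF, PH replicate 1 or 3, and against VOM 551 to 893 and 407 to 655. Correlations of deviations between same-numbered PH and sham libraries were 0.107, 0.021 and -0.591. These values cannot decide whether same-numbered libraries are paired. The deviations were taken from the mean of each group of 3, and the PH and sham libraries of replicate 3 differ in mix. With the replicate block 328 genes were called higher and 252 lower. In that fit 27 and 21 genes differed from YF, 64 and 109 from OF and 711 and 572 from VOM. Mix 5 alone kept 39.5% of the higher and 40.4% of the lower calls, and the model with the mix 29.5% and 25.9%. Of the 97 called among 182 named genes 41 and 51 lost their call. The causes of these moves were not tested.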
